A study of Mus musculus with 6 samples.

Results

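High-mitochondrial barcodes are the droplets of this series that a filter on mitochondrial RNA leaves out. Here they were all barcodes with at least 100 detected genes in which UMIs (unique molecular identifiers, 1 per captured RNA molecule) of the 13 mitochondrially encoded mRNAs, the mt genes, made up 6% or more of gene UMIs. There were 2173 of them among 13533 barcodes with at least 100 genes, or 16.1% (exact 95% binomial interval 15.4 to 16.7%), and 13546 barcodes in the 3 matrices in all. Each barcode was put on the astrocyte side where its UMIs of Slc1a2 and Slc1a3, the main astrocyte glutamate transporters, were at least as many as those of Vtn and Rgs5, 2 genes typical of brain pericytes, and on the pericyte side otherwise. The barcodes were thus chosen by their measured mt share and sided by the 4 class genes, so values of these genes, and of depth where it sets the share, are descriptions with no test.

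The libraries held cells of the amygdala of male wild-type C57BL/6N mice, dissociated with papain in the presence of the transcription and translation blockers actinomycin D, triptolide and anisomycin, and sorted for ACSA-2, an epitope of the astrocyte protein ATP1B2, beside stains for CD11b, CD45 and O1. The 16 mice belonged to 4 groups of 4: NoFC mice were placed in the context without foot shocks, FC mice received them, NoFR mice were conditioned but not re-exposed, and FR mice were conditioned and then recalled the context. The labels time the collection of tissue at 90 min from the start of behaviour for every library and do not time NoFR mice, which had no recall, apart. The cells were marked by mouse with hashtag antibodies and pooled into 3 libraries. The libraries held 5287, 3631 and 4628 barcodes and 42350059, 31700569 and 33368825 gene UMIs, and no barcode had fewer than 500 gene UMIs.

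Mitochondrial mRNAs are made and kept inside the organelle. A cell whose plasma membrane is torn can lose cytosolic mRNA while organelles and the nucleus remain, so the mt share is widely used to set damaged droplets aside, and it also rises in cells that are rich in mitochondria. Astrocytes are branched glia that clear glutamate and are coupled by gap junctions, and pericytes are contractile cells of the capillary wall.

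The high-mitochondrial barcodes lay mostly on the astrocyte side. They were 2098 of 11095 astrocyte-side barcodes, or 18.9% (18.2 to 19.7%), with 957 of 4347 (22.0%, 20.8 to 23.3%) in library 1, 523 of 2920 (17.9%, 16.5 to 19.4%) in library 2 and 618 of 3828 (16.1%, 15.0 to 17.3%) in library 3. Pericyte-side members were 75 of 2438, or 3.08% (2.43 to 3.84%), with 29 of 936 (3.10%), 23 of 710 (3.24%) and 23 of 792 (2.90%). The share was thus higher on the astrocyte side in 3 of 3 libraries, with no overlap of the intervals, which cover counting error only. Of the high-mitochondrial barcodes, 4 carried a sequence that another library also held, and none was high in both.

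Checked against the class genes, the pericyte-side members were often not of a clear class. A class was called clear where 1 pair of class genes had at least 3 UMIs and at least 4 times those of the other pair. On the pericyte side 29 of the 75 high-mitochondrial barcodes (38.7%) were not clear, against 63 (2.67%) of those under 6%. These shares are not matched on depth, and a shallow barcode can miss the limit of 3 UMIs. At 500 to under 1000 non-mt UMIs, 50.0% of pericyte-side members were clear, against 31.8% under 6%. At 1000 to under 2000 UMIs the shares were 73.7 and 74.4%, and at 2000 to under 4000 UMIs 62.5 and 98.2%. Astrocyte-side members were not clear in 100 cases (4.77%), against 362 (4.02%), and 16 held no UMI of any class gene.

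In depth the high-mitochondrial barcodes were shallow. Astrocyte-side members had a median of 744.5 non-mt UMIs (597, 765 and 910.5 in libraries 1, 2 and 3) and 468 genes, against 9598 non-mt UMIs (9781.5, 10364 and 8694) and 3380 genes under 6%. Their mt UMIs differed far less, with a median of 228 against 194. The mt share had a median of 20.8% (25.4, 18.7 and 17.3% by library) and reached 87.8%. Pericyte-side medians were 937 against 4912 non-mt UMIs, 565 against 2393 genes and 113 against 88 mt UMIs, and the median mt share was 9.75%. In both classes, then, the numerator of the share was of a like size in both arms and the denominator was not. Part of this is fixed by the matrices: with at least 500 gene UMIs in each barcode, one with under 470 non-mt UMIs has to pass 6%, and that held for 579 astrocyte-side members (27.6%) and 11 pericyte-side members (14.7%).

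**Figure D1:**
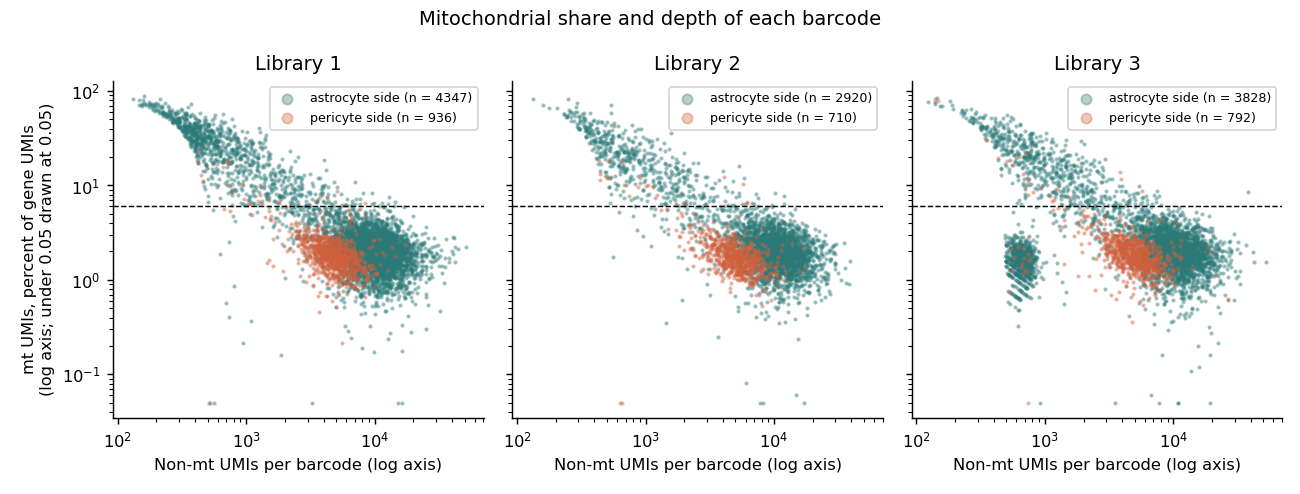
Each point is a barcode, placed by its non-mt UMIs (x, log axis) and the mt percent of its gene UMIs (y, log axis), in the 3 libraries; colour gives the class and the dashed line is 6%. The barcodes above the line run in 1 band from the deep, low-mt cloud to the shallow end, and library 3 alone has a separate low-mt cloud between 500 and 1000 non-mt UMIs.

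Within bins of non-mt UMIs the order of the sides depended on the library at the shallow end. From 500 to under 8000 UMIs the astrocyte side had the higher share in each bin of libraries 1 and 2. Library 3 had the same order except at 500 to under 1000 UMIs. Among barcodes with 2000 to under 4000 non-mt UMIs, 43.7, 43.7 and 46.5% of the astrocyte side were at or above 6% in libraries 1, 2 and 3, against 1.40% of the pericyte side over all libraries. At 1000 to under 2000 UMIs the shares were 86.7% and 30.6%. At 500 to under 1000 UMIs they were 50.4% and 54.2% over all libraries. By library they were 96.2 against 72.7% in library 1 (8 of 11 on the pericyte side), 97.3 against 77.8% in library 2 (7 of 9) and the reverse order, 24.7 against 39.3%, in library 3. Of the deepest astrocyte-side barcodes, with 8000 UMIs or more, 0.273% were at or above 6%, against 0.662% (1 of 151) on the pericyte side. The classes differ in their usual depth, so the same number of UMIs is a larger part of a typical pericyte-side barcode.

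Library 3 stood apart at the shallow end. It held 664 barcodes under 6% with 500 to under 1000 non-mt UMIs, 647 of them on the astrocyte side, where libraries 1 and 2 had 11 and 5. Only 55.4% of these 664 were of a clear class, and their summed level of Vtn was 2075 CPM (a gene's UMIs scaled to the sum of all non-mt UMIs) beside 7448 CPM of Slc1a2. The deeper low-mt barcodes of library 3 summed to 1602 and 7405 CPM of the same genes, and the 223 high-mitochondrial barcodes of that library in this depth range had 481 and 7042 CPM with 94.2% of a clear class. In the same order of these 3 sets, Slc1a3 was at 3343, 3332 and 9319 CPM and Rgs5 at 740, 739 and 74.1 CPM. The sums mix both sides, with 17 of 664, 752 of 3304 and 11 of 223 barcodes on the pericyte side. Of the 376 astrocyte-side partners that library 3 gave to the matched comparison, 242 were such shallow barcodes (64.4%), and they held 26.3% of the partners' non-mt UMIs. Leaving library 3 out changed several matched results, as given beside them.

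Values just below and just above the threshold were as follows. The 187 astrocyte-side barcodes at 5 to 6% had a median of 4121 non-mt UMIs and the 142 at 6 to 7% had 2808. Summed Cmss1 was 10502 and 10690 CPM in these bins, Gja1 1125 and 1111 CPM, and Malat1 71750 and 53922 CPM. The pericyte side had 16 barcodes in each bin, with Cmss1 at 9837 and 14662 CPM.

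Within the mitochondrial mRNAs the make-up shifted little. For the astrocyte side, mt-Atp6, a subunit of the ATP synthase, gave 17.5% of mt UMIs in the high-mitochondrial barcodes and 16.7% under 6%, and mt-Co3, of cytochrome c oxidase, 15.8 and 14.8%. For mt-Co1, the catalytic subunit of that oxidase, the values were 13.5, 13.2 and 13.5% in libraries 1, 2 and 3 against 15.5, 15.0 and 14.7%. So mt-Co1 took a smaller part in 3 of 3 libraries, whereas the pericyte side had a larger part of it in 3 of 3, 12.1 against 10.5% in library 2 and 11.9 against 10.0% in library 3 for example. The same side had 18.2 against 20.3% for mt-Atp6.

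To compare nuclear genes at equal depth, each high-mitochondrial barcode was paired with 1 barcode under 6% of its own library and class whose non-mt UMIs lay within 0.05 on the log10 scale. Equal depth here means this match on non-mt UMIs alone, and detected genes were not matched. Partners were found for 631 of the 2098 astrocyte-side members (153, 102 and 376 by library), whose median mt share was 8.40, 8.09 and 16.9%, and for 43 of the 75 pericyte-side members (16, 10 and 17). The remaining members entered the comparison without matching only. Matched astrocyte-side members had medians of 1325, 1238.5 and 532.5 detected genes by library, against 1451, 1362 and 614 in their partners. Pericyte-side medians were 981, 1418.5 and 497 against 1067.5, 1595.5 and 598. Non-mt UMIs were summed over the barcodes of each library, class and arm, which gave 12 sums. These were tested with edgeR's quasi-likelihood test, the library as a block, and Benjamini-Hochberg adjustment over all genes. The replicate is the library, itself a pool of mice, so n = 3 pairs of sums throughout.

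On the astrocyte side, 199 of 5404 genes tested passed an adjusted p of 0.05 (3.68%), with 113 higher (2.09%) and 86 lower (1.59%) in the high-mitochondrial barcodes. Of these, 109 and 75 moved in the same direction in 3 of 3 libraries. The count was 371 without library 1, 25 without library 2 and 32 without library 3, and DESeq2 called 42. The genes described first are from the 12 with the largest difference in each direction by the naming rule. Genes chosen after their values were seen are named as such.

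Among the genes that rose, the largest well-spread difference was that of Atg4a (chrX:140956907-141164270, plus strand), a cysteine protease that processes ATG8 proteins in autophagy. Its levels were 159, 147 and 411 CPM in the high-mitochondrial sums of libraries 1, 2 and 3 against 52.8, 37.4 and 50.9 CPM in their partners. All 3 high sums lay above all 3 low sums, the log2 difference was 2.29 ± 0.30 (SE from the fit, n = 3, adjusted p = 1.8e-11), and no single barcode gave over 2.77% of the UMIs. Without matching the log2 difference was 3.17. Gm5089 (ENSMUSG00000064052), a predicted gene, read 188, 251 and 373 CPM against 80.3, 112 and 80.2 CPM, with a log2 difference of 1.58 ± 0.26 (adjusted p = 1.7e-06).

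Cmss1 had the most UMIs of the genes that rose. It encodes a protein named for the small subunit of the cytosolic ribosome, and its locus (chr16:57302000-57606864, minus strand) overlaps Filip1l on the other strand, and the sources used here do not say whether counting used strand. Its levels were 24529, 28820 and 21008 CPM against 9224, 11560 and 7371 CPM, with no overlap between the arms. The log2 difference was 1.41 ± 0.41 (adjusted p = 0.025) and 2.32 ± 0.11 without matching. The call was lost without library 1 (adjusted p = 0.074) and without library 2 (adjusted p = 0.68), where the difference was 1.47 and 1.53, and it held without library 3 (1.37, adjusted p = 4.8e-08).

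Smaller genes rose beside it. Zdhhc1, of the palmitoyltransferase family, was at 94.1, 139 and 207 CPM against 59.7, 37.4 and 48.9 CPM (1.54 ± 0.29, adjusted p = 9.9e-05). Wdr35, a component of intraflagellar transport, was at 101, 147 and 221 CPM against 64.2, 74.7 and 45.0 CPM (1.37 ± 0.28, adjusted p = 4.7e-04). Rcan2, a regulator of calcineurin, was at 111, 95.6 and 97.1 CPM against 39.0, 33.6 and 35.2 CPM (1.48 ± 0.34, adjusted p = 0.0025). For each of these 3 genes the high-mitochondrial sums lay above the others without overlap. Gm49164, a predicted gene, had a log2 difference of 1.45 ± 0.36 (adjusted p = 0.0056).

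A further set among the 12 rested wholly or in part on 2 barcodes. Ttr, which encodes transthyretin and is the classic transcript of the choroid plexus, read 11163, 104 and 31889 CPM against 2.29, 0 and 233 CPM (log2 difference 8.06 ± 0.52, adjusted p = 1.1e-49). Of 19587 Ttr UMIs in the series, 19061 lay in 2 astrocyte-side members, 1 in library 1 with 4625 Ttr UMIs and 12967 non-mt UMIs, and 1 in library 3 with 14436 and 38024, and no other barcode had more than 26. Both held many UMIs of Enpp2 (338 and 484) and Kl (31 and 45), with 0 and 3 UMIs of Slc1a2 and none of Aqp4 or Gja1. Both were called hashtag doublets, and their mt share was 7.64 and 8.58%. Enpp2 and Igf2, also genes of the choroid plexus, were called with them (log2 differences 7.11 and 2.03), as was Sh3d19 (1.65). Without these 2 barcodes Ttr was 0.94 lower on the log2 scale and not called, Igf2 passed in the other direction (-3.24, adjusted p = 0.030), and Sh3d19, at 1.04, no longer passed.

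Of the 12 genes named for their fall, Gm35188 had the most UMIs. This predicted gene was at 82.1, 87.6 and 57.4 CPM in the high-mitochondrial sums against 282, 288 and 174 CPM, without overlap. The log2 difference was -1.70 ± 0.27 (adjusted p = 3.8e-07) and -3.04 without matching. Gm31356, a second predicted gene, fell by 1.78 on the log2 scale when matched and by 2.78 unmatched. Tubb5, a beta-tubulin, was at 19.3, 19.9 and 37.5 CPM against 39.0, 52.3 and 188 CPM (-1.79 ± 0.39, adjusted p = 8.4e-04), and Cdk5, a kinase best known from neurons, and Txnip, an inhibitor of thioredoxin, fell by 1.58 and 1.52. A single barcode held 57.5% of the Tubb5 UMIs of the low arm, and without the 2 barcodes rich in Ttr, Tubb5 (-0.92, adjusted p = 0.21) and Txnip (-1.38, adjusted p = 0.082) did not pass.

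The 7 other genes of the falling 12 are abundant on the pericyte side. They were Tbx3os1 (-2.76), Cp, which encodes ceruloplasmin (-2.64), Abcc9, a subunit of the vascular ATP-sensitive potassium channel (-2.64), Rapgef5 (-2.32), the amino acid transporter gene Slc6a20a (-2.19), the transcription factor gene Ebf1 (-2.10) and Adap2 (-1.85). Their mean levels over the matched sums were 21.2 to 62.0 CPM on the astrocyte side and 962 to 2278 CPM on the pericyte side. Without matching, Tbx3os1, Abcc9, Rapgef5, Slc6a20a, Ebf1 and Adap2 had differences above 0, from 0.38 to 1.38, and Cp was at -0.00. Of the 6 above 0, 5 passed in that opposite direction, with adjusted p from 4.0e-04 (Ebf1) to 0.028 (Slc6a20a), and Abcc9 did not (adjusted p = 0.46). Without library 3 the differences ranged from -3.74 (Cp) to -0.62 (Slc6a20a), and Abcc9, Rapgef5 and Slc6a20a did not pass, while without library 2 only Tbx3os1 and Slc6a20a of the 7 passed. The low partners of library 3 were of a clear class in 74.5% of cases. In barcodes of a clear class alone, still matched, 6 of the 7 passed, with differences from -3.78 (Rapgef5) to -2.33 (Adap2), and Ebf1 did not (-1.47, adjusted p = 0.26). With a threshold of 5%, Cp (-0.87), Adap2 (-0.80) and Ebf1 (-0.47) did not pass, and the others did. Matched on all gene UMIs, Abcc9 (-1.67), Rapgef5 (-1.35) and Ebf1 (-1.40) did not pass, and by DESeq2 Slc6a20a did not (-1.93).

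**Figure D2:**
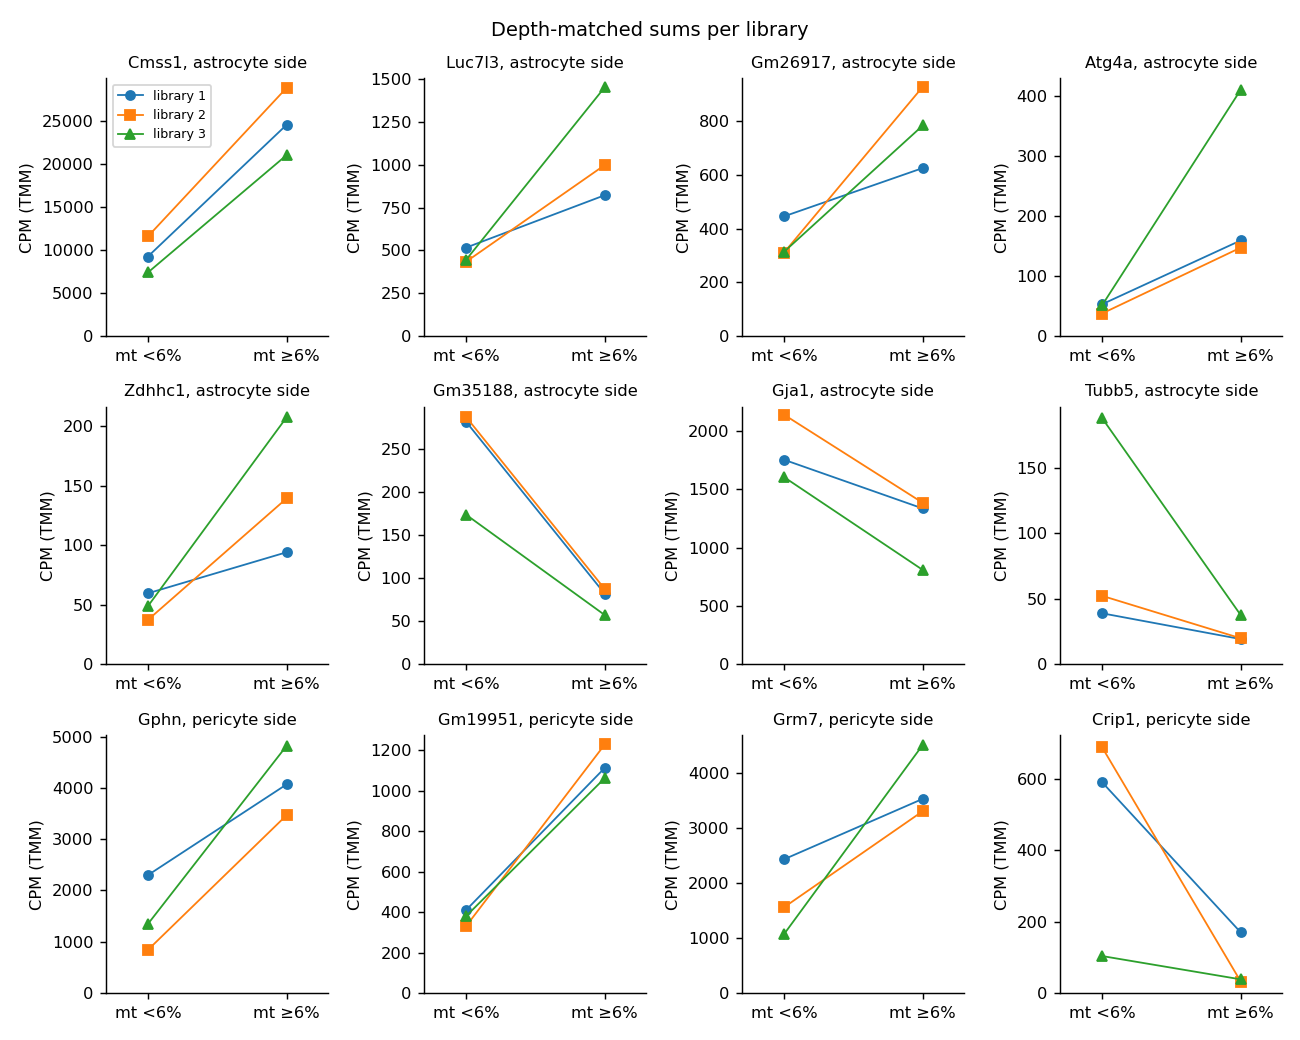
Levels in CPM (linear axes from 0, TMM-scaled library sizes) of 8 genes on the astrocyte side and 4 on the pericyte side, in depth-matched sums under 6% (left) and at or above 6% mt (right); each line is 1 library. Cmss1, Luc7l3, Atg4a, Gphn and Gm19951 run upward in all 3 libraries, while Gm35188, Gja1 and Crip1 run downward.

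Further genes were singled out after their values were seen. Luc7l3 (chr11:94287890-94321988, minus strand), a splicing factor bound to the U1 particle, was at 823, 999 and 1455 CPM against 516, 434 and 444 CPM (1.20 ± 0.24, adjusted p = 2.6e-04), and without library 2 it did not pass (1.26). Gm26917 (chr17:39843013-39846341, plus strand), annotated as a long noncoding RNA, was at 625, 928 and 784 CPM against 445, 310 and 313 CPM (1.11 ± 0.23, adjusted p = 6.0e-04). Without library 2 it was not called, and which RNA its UMIs come from was not tested. In both genes every high-mitochondrial sum lay above every partner. Gm19951 was at 1591, 1704 and 1640 CPM against 746, 729 and 642 CPM (1.22 ± 0.25, adjusted p = 3.4e-04). Gphn, which encodes the synaptic scaffold gephyrin, was at 5918, 5817 and 5096 CPM against 3141, 3296 and 2299 CPM (0.96 ± 0.31, adjusted p = 0.048). Malat1, the most abundant nuclear RNA here, did not pass (-0.21 ± 0.56, adjusted p = 0.85) and was 0.80 lower on the log2 scale without matching.

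Bc1, also chosen after its values were seen, is a short noncoding RNA made by RNA polymerase III and known from neuronal dendrites. Its levels were 169, 147 and 331 CPM against 82.6, 59.8 and 131 CPM (1.22 ± 0.26, adjusted p = 9.2e-04). All high sums lay above all low sums. A single barcode gave 28.0% of the high UMIs, and the call was lost in barcodes of a clear class alone (0.74, adjusted p = 0.080), without called doublets (0.66, adjusted p = 0.13), without the 2 barcodes rich in Ttr (0.75, adjusted p = 0.074) and with 10% mt or more in the high arm (0.32, adjusted p = 0.57). It was lost as well without library 2 (1.27, adjusted p = 0.071) and without library 3 (1.13, adjusted p = 0.058). The transcript, from the GENCODE annotation of GRCm38, is a lincRNA of 168 bases at chr7:144914470-144914637 on the plus strand and is shown for the long run of A inside it. The capitals mark its longest run of A, 23 bases from position 77 to 99:
Bc1: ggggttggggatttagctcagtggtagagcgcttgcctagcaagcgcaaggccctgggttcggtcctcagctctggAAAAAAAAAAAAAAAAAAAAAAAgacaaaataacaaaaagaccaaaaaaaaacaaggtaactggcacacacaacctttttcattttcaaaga

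The gene lists that describe energy metabolism and translation are set beside all genes tested at equal depth, of which 2.09% rose and 1.59% fell. Of 80 genes of the nuclear-encoded respiratory chain tested, 0 rose and 1 fell (Ndufa4l2, itself a pericyte gene), with a median log2 difference of -0.27 against -0.04 over all genes. The list's median was -0.25, -0.14 and -0.23 without libraries 1, 2 and 3, and 0 fell without library 2 or without library 3. Of 81 cytosolic ribosomal protein genes 0 rose and 0 fell, but 81 of 81 had a difference below 0, and the median was -0.35. This median was -0.47, -0.25 and -0.18 without libraries 1, 2 and 3, where 2, 0 and 0 genes fell. Among these 81, 14 had an unadjusted p under 0.05 in edgeR's test, and DESeq2 called 0. Of 39 mitochondrial ribosomal protein genes Mrpl15 and Mrpl17 fell (median -0.46), and neither library 2 nor library 3 could be left out without losing both calls. Of 20 genes of mitochondrial transcription, import and dynamics 1 rose and 1 fell, with a median of -0.19. Vdac2, a channel of the outer mitochondrial membrane, fell, at 198, 135 and 166 CPM against 312, 292 and 344 CPM (-0.92 ± 0.24, adjusted p = 0.012), a call lost without library 2 (-0.79, adjusted p = 0.46), without library 3 (-0.83, adjusted p = 0.10) and by DESeq2 (-0.90, adjusted p = 0.070).

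Without matching, 3420 of 12544 genes were called on the astrocyte side (27.3%), 1546 higher (12.3%) and 1874 lower (14.9%). There 37 of 83 respiratory chain genes rose and 3 fell (median 0.21, against -0.08 over all genes), and 47 of 82 ribosomal protein genes rose and 1 fell (median 0.29). With the high arm limited to 10% mt or more, again matched, 448 of 2021 genes were called (22.2%), 106 higher (5.24%) and 342 lower (16.9%), with a median of -0.14 over all genes. This comparison rested on 69, 52 and 288 pairs in libraries 1, 2 and 3, so mostly on library 3. Of its low partners 98.6, 96.2 and 68.1% were of a clear class, and those of library 3 had a median of 750.5 non-mt UMIs. There 0 rose and 48 fell among the respiratory chain genes, and 0 rose and 36 fell among the ribosomal protein genes. The medians of the lists at 10% were -1.08 and -0.95, so both lists were below 0 in both matched comparisons and above 0 without matching. The comparison without matching also held the members that had no partner, and the cause of the change in direction was not tested. Of the 199 genes called at matched depth, 155 were called in the same direction without matching, 101 higher and 54 lower, and 7 in the other.

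**Figure D3:**
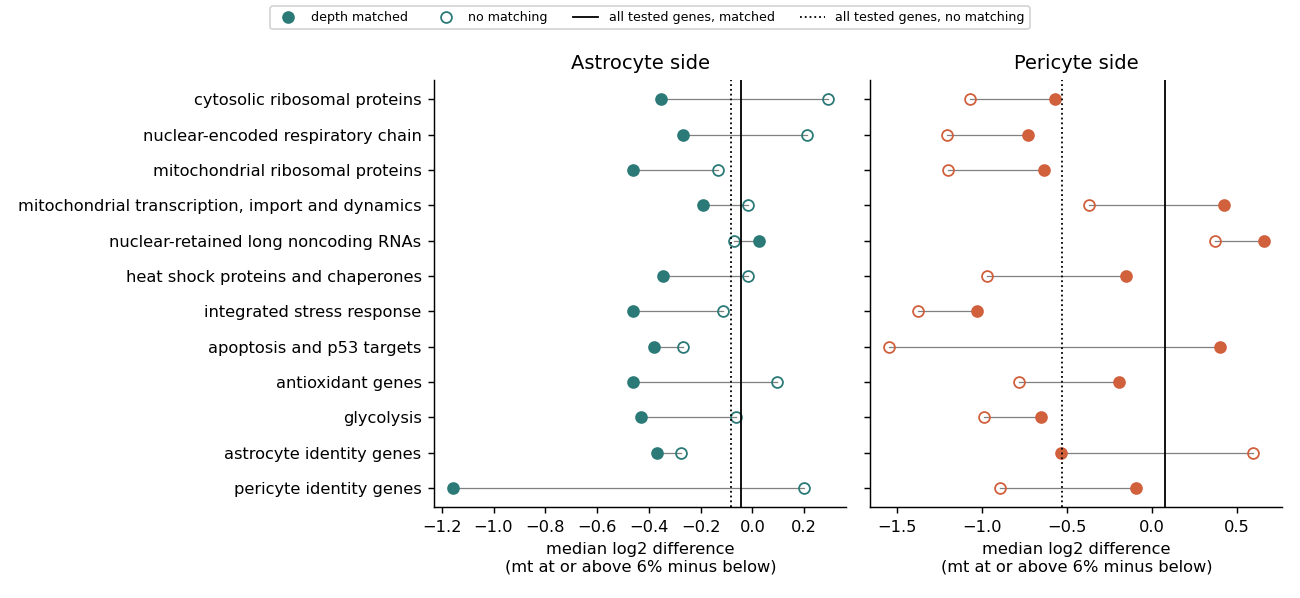
Median log2 difference (mt at or above 6% minus below) over the tested genes of 12 lists on the astrocyte (left) and pericyte side (right), for depth-matched sums (filled) and all barcodes (open); vertical lines give the medians over all tested genes. The cytosolic ribosomal and respiratory chain lists lie below 0 when matched on both sides and above 0 without matching on the astrocyte side, while the mitochondrial ribosomal list lies below 0 in all 4 cases.

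The stress lists are short, and 3.68% of all genes were called at equal depth. Of 12 heat shock and chaperone genes, 6 genes of the integrated stress response, 6 of apoptosis and p53, 16 antioxidant genes and 3 immediate early genes, 0 rose and 0 fell in edgeR's test, as in DESeq2, while 14 of these 43 had an unadjusted p under 0.05. In barcodes of a clear class 1 heat shock and 1 antioxidant gene fell, 1 heat shock gene fell without library 1 and without the 2 barcodes rich in Ttr, and 1 antioxidant gene fell with at least 1000 non-mt UMIs. With 10% mt or more in the high arm, where 16.9% of all genes were lower, 5 of 8 heat shock, 5 of 8 antioxidant, 1 of 2 integrated stress response and 1 of 3 apoptosis genes tested fell and 0 rose. Without matching, 12.3% of all genes were higher and 14.9% lower. There 2 of 16 heat shock, 3 of 17 apoptosis and 2 of 19 antioxidant genes rose, and 3, 2 and 2 fell. Of 13 integrated stress response and 12 immediate early genes 0 rose, and 2 and 3 fell. At 6%, all 16 antioxidant genes had differences below 0, with a median of -0.46. Of 14 genes of glycolysis 0 rose and 1 fell (Tpi1), with a median of -0.43, and 0 fell without library 2 or without library 3, 4 in barcodes of a clear class and 8 with 10% mt or more. Of 8 genes listed as nuclear-retained long noncoding RNAs 1 rose (Gm26917, placed there by its annotation) and 0 fell, with a median of 0.02, and 0 rose without library 2.

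Of 28 identity genes of astrocytes tested at equal depth, 0 rose and 3 fell, beside 1.59% of all genes lower. They were Gpr37l1, an orphan receptor, Mfge8, a secreted bridging protein of phagocytosis, and Cldn10, a claudin. The list's median was -0.37 against -0.04 over all genes. Without library 2 and without library 3, 0 rose and 0 fell (medians -0.30 and -0.21). Gja1, which encodes the gap junction protein connexin 43, was at 1337, 1386 and 810 CPM against 1755, 2142 and 1607 CPM. All high sums lay below all low sums, but the log2 difference of -0.67 ± 0.25 did not pass (adjusted p = 0.093), while without matching it was -1.02 ± 0.09 (adjusted p = 5.1e-25). Atp1b2, which carries the epitope used for sorting, was 0.44 lower on the log2 scale at equal depth (adjusted p = 0.27) and 0.67 lower without matching (adjusted p = 1.3e-10). Without matching 3 of the 28 identity genes rose and 15 fell, beside 12.3% of all genes higher and 14.9% lower.

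Identity genes of pericytes were also looked at within the astrocyte side. Of 21 tested, 0 rose and 7 fell, among them Kcnj8, Abcc9 and Atp13a5, with a median of -1.16, against 1.59% of all genes lower and a median of -0.04. Without library 3 (median -0.17) and without library 2 (median -1.08), 0 rose and 0 fell. Among barcodes of a clear class 7 fell (median -1.88), without the 2 barcodes rich in Ttr 10 fell (median -1.89), and among barcodes with at least 1000 non-mt UMIs 1 rose and 2 fell (median 0.00). The class gene Vtn itself read 21.7, 71.7 and 88.3 CPM in the high-mitochondrial sums against 20.7, 33.6 and 599 CPM, so that library 3 alone was lower. Without matching 5 of the 21 rose and 1 fell, beside 12.3% of all genes higher and 14.9% lower.

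Along the whole range of mt share, without matching, the same genes changed step by step on the astrocyte side. In bins of under 3, 3 to 6, 6 to 10, 10 to 20, 20 to 30, 30 to 50 and 50% or more, which held 7439, 1558, 438, 577, 421, 481 and 181 barcodes, Cmss1 rose from 4271 CPM over 6582, 12573, 26054, 31581 and 45723 to 56612 CPM. Luc7l3 went from 295 CPM in the lowest bin to 4765 CPM in the highest, and Bc1 from 39.0 to 888 CPM. Gja1 went the other way, from 1615 CPM to 303 CPM. These are descriptions, since depth and mt share move together along the bins.

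Other transcripts did not follow a straight line. Malat1 had 95106 CPM in the lowest bin, 47925 CPM at 6 to 10%, 64878 CPM at 20 to 30% and 42701 CPM in the highest bin. The cytosolic ribosomal proteins list together took 1.45% of non-mt UMIs in the lowest bin, 2.24% at 6 to 10% and 0.687% at 30 to 50%. The nuclear-encoded respiratory chain list had 2.10% at 6 to 10% and 0.516% at 30 to 50%. Both lists thus peaked in the first bin above the threshold and were lower at 30 to 50%.

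**Figure D4:**
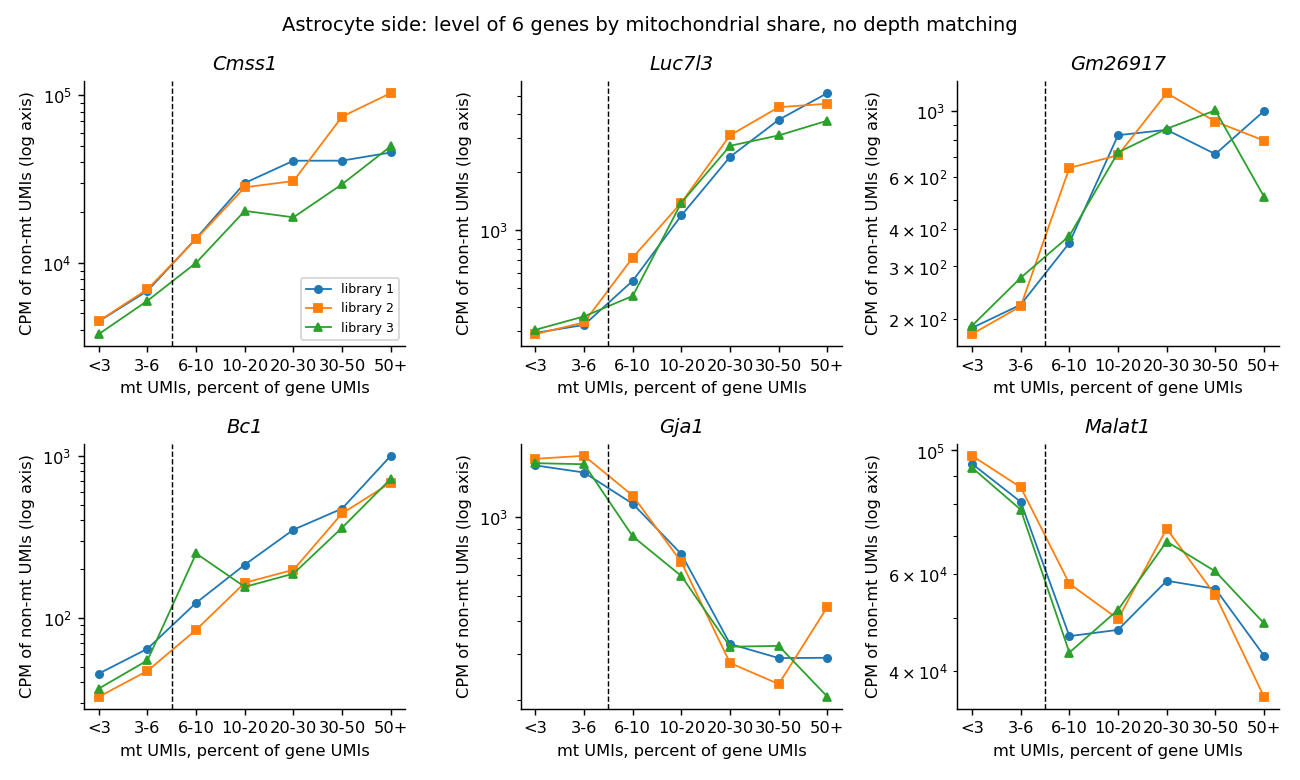
CPM of non-mt UMIs (log axes, a range of its own in each panel) of 6 genes on the astrocyte side by bin of mt share, 1 line per library, without depth matching; the dashed line is 6%. Cmss1, Luc7l3 and Bc1 rise from the lowest to the highest bin in each library, Gja1 falls, and Malat1 drops from the lowest bin to 6 to 10% and is higher again at 20 to 30%.

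On the pericyte side, 6 of 5404 genes passed at equal depth (0.111%), 5 higher (0.0925%) and 1 lower (0.0185%). The count was 1 without library 1, 0 without library 2 and 35 without library 3. All 6 genes are given here, and some rest on few UMIs.

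Of the 5 that rose, Frmd4a, a scaffold of cell polarity, was at 751, 820 and 608 CPM against 136, 180 and 172 CPM (2.18 ± 0.51). Gm19951 was at 1114, 1230 and 1063 CPM against 409, 330 and 379 CPM (1.60 ± 0.39). Gphn was at 4069, 3469 and 4823 CPM against 2297, 840 and 1345 CPM (1.51 ± 0.36). Gm19951 and Gphn had also risen on the astrocyte side. Grm7, a metabotropic glutamate receptor gene, was at 3536, 3311 and 4519 CPM against 2434, 1559 and 1069 CPM (1.17 ± 0.28). Setbp1 was at 242, 284 and 380 CPM against 68.2, 0 and 34.5 CPM, from 29 and 4 UMIs (2.95 ± 0.72). All 5 had an adjusted p of 0.038, and in none did the arms overlap.

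Crip1, which encodes a small LIM protein of contractile and vascular cells, was the gene that fell. It was at 170, 31.5 and 38.0 CPM against 591, 690 and 103 CPM, from 9 and 52 UMIs (-2.45 ± 0.54, adjusted p = 0.030). The highest high-mitochondrial sum lay above the lowest partner, so the arms overlapped across libraries, and without called doublets the difference was 0.49. Cmss1 and Luc7l3 had log2 differences of 1.51 ± 0.43 and 1.24 ± 0.45 on this side and did not pass (adjusted p = 0.12 and 0.35).

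Of the class genes, Slc1a3 was higher and Vtn lower in these members in 3 of 3 libraries. Slc1a3 was at 1308, 1324 and 798 CPM against 22.7, 210 and 483 CPM, and Vtn at 9493, 8861 and 7444 CPM against 17287, 11484 and 10416 CPM. The other class genes, Slc1a2 and Rgs5, are given on this side for the unmatched bins at the threshold only. From 5 to 6% to 6 to 7% mt, Slc1a2 went from 1550 to 626 CPM and Rgs5 from 3533 to 3857 CPM. Slc1a3 went from 788 to 1111 CPM there and Vtn from 10015 to 8139 CPM, so the genes of each pair moved apart. The 28 astrocyte identity genes on this side had a median of -0.53, with 9 above 0 and 19 below, and a median of 1.43 without library 3, where 1 rose and 0 fell. Matched members were of a clear class in 56.2, 70.0 and 64.7% of cases in libraries 1, 2 and 3, against 93.8, 90.0 and 47.1% of their partners, so library 3 had the other order. In barcodes of a clear class alone 22 genes were called on this side.

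No list had a call on the pericyte side at equal depth in edgeR's test, which called 0.111% of all genes there, so the counts of 0 tell nothing about the lists. An unadjusted p under 0.05 was given by 14 of 80 respiratory chain and 11 of 81 ribosomal protein genes, and DESeq2 called 0 and 2. The medians were -0.73 for the respiratory chain and -0.57 for ribosomal proteins, against 0.08 over all genes. Without matching, 600 of 12544 genes were called (4.78%), 171 higher (1.36%) and 429 lower (3.42%), against a median over all genes of -0.53. In that comparison 61 of 82 ribosomal protein genes fell (median -1.07), 34 of 83 respiratory chain genes fell (median -1.21) and 15 of 21 pericyte identity genes fell, and 0 of each rose. The 2 sides thus had opposite directions for the ribosomal and respiratory lists when depth was not matched, which was not tested as a difference of lists.

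The difference between the sides was tested gene by gene with an interaction term at equal depth, and 17 of 5404 genes passed (0.315%), 4 with a higher (0.074%) and 13 with a lower difference (0.241%) on the astrocyte side. The count was 10 without library 1, 1 without library 2 and 20 without library 3, and 8, 1 and 3 of these were among the 17. Without matching, 4 of the 17 passed in the same direction and 11 had the opposite sign, 1 of which passed. Crip1 was 1.49 higher on the astrocyte side and 2.45 lower on the pericyte side, but without the 2 barcodes rich in Ttr its astrocyte-side difference was 0.040 (adjusted p = 0.97). Grm7 was at -1.07 and 1.17. The genes of the falling set (Tbx3os1, Cp, Abcc9, Rapgef5, Slc6a20a, Ebf1 and Adap2) were among the 17, and had pericyte-side differences of 0.01 to 0.29.

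Markers of other cell types had low sums, but several were called higher without matching. There 5 of 6 neuron markers tested rose and 0 fell (median 2.69), 2 of 3 oligodendrocyte markers rose and 1 fell (median 1.47) and 3 of 4 smooth muscle markers rose and 0 fell (median 4.39), against 12.3% of all genes higher and a median of -0.08. At equal depth 1 neuron, 1 oligodendrocyte and 2 smooth muscle markers were tested and 0 were called, beside 3.68% of all genes. Their medians were 0.82, -0.49 and -0.23, and so few genes tell little about the lists. Among all astrocyte-side members, 12 neuron markers summed to 182 CPM against 86.8 CPM under 6%, with Atp1b1 the most abundant and none at 0. The sums were 109 against 95.1 CPM for 10 oligodendrocyte markers, led by Cnp, and 118 against 92.6 CPM for 8 markers of its precursors, led by Vcan with Gpr17 at 0. Neuron markers thus had the highest sum of the 3 lists in the high-mitochondrial barcodes, and the part of these markers in the other results was not tested.

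Vascular and blood markers moved both ways. Smooth muscle markers, led by Acta2, summed to 69.2 against 7.06 CPM, with 160 of their 181 UMIs in library 3. By library they were at 14.9, 7.54 and 183 CPM against 6.40, 6.10 and 8.81 CPM. Erythrocyte markers, led by Hbb-bs, summed to 1.91 against 177 CPM, with Hba-a2, Hbb-bt and Alas2 at 0 in the high-mitochondrial barcodes. Of the 15921 UMIs under 6%, 15806 lay in library 1 (444 CPM), and libraries 2 and 3 had 1.99 and 2.24 CPM. Endothelial markers summed to 8.03 against 11.4 CPM with Cldn5, Ly6c1, Ly6a and Cdh5 at 0. Of the microglial markers, C1qc, Csf1r, Tmem119, Ctss and Tyrobp were at 0. Ependymal and fibroblast markers differed less, at 46.7 against 53.9 and 31.0 against 28.7 CPM. The 75 pericyte-side members held 40 endothelial UMIs (321 against 503 CPM), 87 smooth muscle UMIs (699 against 701 CPM) and 82 fibroblast UMIs (659 against 464 CPM).

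Genes that bear on the question of the study were sparse in these barcodes. Fos, the immediate early gene used to mark active cells, had 4 UMIs in the matched high-mitochondrial sums of the astrocyte side and 3 in their partners, and Adrb1, the beta-1 adrenergic receptor gene, had 36 and 25. Neither was tested at equal depth. Adra1a, which encodes an alpha-1 adrenergic receptor, did not pass (0.47 ± 0.30, adjusted p = 0.35). Igfbp2, an IGF-binding protein gene, rose (1.11 ± 0.26, adjusted p = 0.0024), with 29.5% of its UMIs in 1 barcode. Without the 2 barcodes rich in Ttr it did not pass (0.37, adjusted p = 0.39).

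Whether the high-mitochondrial share differed with behaviour was asked over mice, with barcodes that hashtags put to 1 mouse (singlets). On the astrocyte side the shares were 17.3, 16.8, 29.1 and 19.5% in the 4 NoFC mice, and FC mice had 22.9, 19.5, 19.4 and 21.8%. NoFR mice had 22.1, 24.5, 16.3 and 17.7%, and FR mice had 13.1, 23.5, 30.3 and 15.5%. The group values were 20.7% ± 5.72 (SD, n = 4), 20.9% ± 1.75, 20.2% ± 3.81 and 20.6% ± 7.83. All groups overlapped, and 2-sided exact permutation tests of the 6 pairs gave p from 0.714 to 1, each 1 after Benjamini-Hochberg adjustment over the 12 tests of both sides, where 4 mice against 4 can reach 0.0286 at the lowest. Within library 1, which held 2 mice of each group, NoFC averaged 17.0%, FC 21.2%, NoFR 23.3% and FR 18.3%. Library 2 gave 29.1% in NoFC (1 mouse), 20.6% in FC (2 mice) and 30.3% in FR (1 mouse), and library 3 gave 19.5% in NoFC (1 mouse), 17.0% in NoFR (2 mice) and 15.5% in FR (1 mouse), so the order of the groups differed between libraries.

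Pericyte-side shares rested on 24 high-mitochondrial barcodes among 838 singlets. NoFC mice had 4.67% ± 1.87 (SD, n = 4), FC mice 0.633% ± 1.27, NoFR mice 3.66% ± 4.47 and FR mice 2.52% ± 3.08. The lowest exact permutation p was 0.0571, for FC against NoFC, or 0.686 after adjustment. In library 1 NoFC mice averaged 4.98% and FC mice 0%, and in library 2 they were at 2.27% (1 mouse) and 1.27%. No pair passed in either class.

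**Figure D5:**
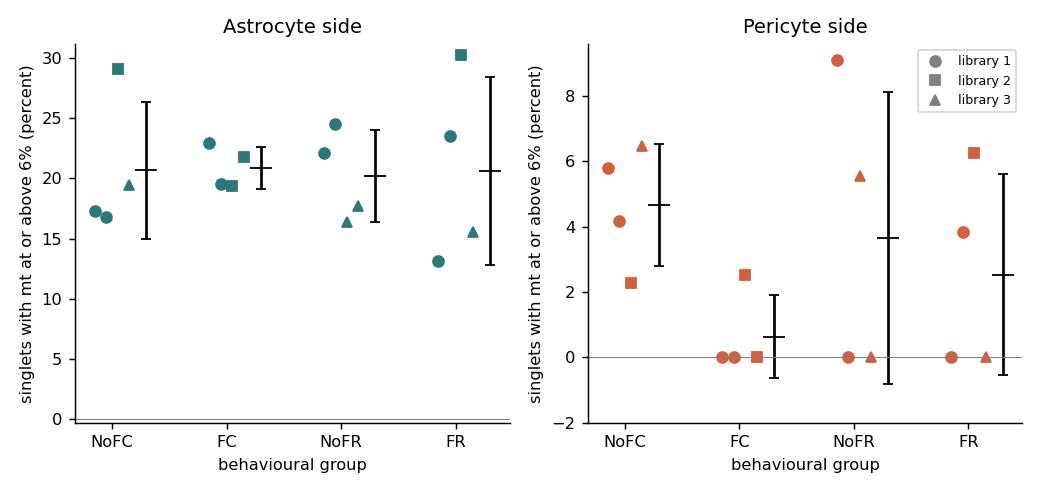
Percent of hashtag singlets at or above 6% mt in each of the 16 mice by behavioural group, for the astrocyte (left, axis from 0) and pericyte side (right); marker shape gives the library, and bars give the mean and SD of 4 mice. The 4 astrocyte-side means lie between 20.2 and 20.9%, and the pericyte-side means between 0.633 and 4.67%.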

How the data were processed

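The authors deposited 1 matrix of UMI counts per library, made with Cell Ranger on mm10. The submitters' processing notes name version 3.0 and the file headers 7.0.0. The sources used here do not give whether intronic reads were counted or background RNA removed. The limits of 100 genes and 6% mt follow the study's methods, whose wording does not make plain which side of 6% was left out, and here it was taken to be 6% or more.

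From these counts, hashtags with at least 1000 UMIs in a library were called with HTODemux (Seurat 5.3.0, quantile 0.99). Doublets were kept, and Scrublet (scanpy 1.11.5) marked 0.473% of barcodes, a low share whose accuracy was not tested. Non-mt counts were summed per library, class and arm, filtered with filterByExpr, scaled by TMM and tested with edgeR 4.0.16 (R 4.3.3, quasi-likelihood, Benjamini-Hochberg). The SE beside a log2 difference is its absolute value divided by the square root of the F statistic of that test. It comes from the fit to all 12 sums and is not the spread of the differences of the 3 libraries. The 4 class genes and 13 mt genes were not tested. Because both arms of a pair come from the same library, the library block pairs them by design. Nothing says that the libraries are separate preparations beyond the mice they pool, so p-values measure the spread between 3 libraries.

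The named genes were the 12 with the largest called difference in each direction and class at a mean of 20 CPM or more, moving one way in 3 of 3 libraries. Members, lists and tests were chosen with earlier results of these data known. Coordinates are GRCm38 (GENCODE vM21), matched by gene ID for 128 of 128 genes, and overlaps were looked up there. CPM uses TMM-scaled library sizes in matched sums and plain non-mt totals elsewhere. Exact intervals are 95% Clopper-Pearson and cover counting error only. Permutation tests used SciPy 1.17.1. The scripts were tested on simulated data. A few genes that met these rules are not reported here.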

Additional observations from a re-analysis of the deposited data

Results flagged for a closer look

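The log2 difference between high-mitochondrial barcodes and their depth-matched partners differed between the classes for 17 genes by the interaction term (edgeR's quasi-likelihood test, Benjamini-Hochberg adjusted p under 0.05, astrocyte side minus pericyte side). The difference was above 0 for Ttr (10.17), Enpp2 (7.99), Pcp4l1 (4.95) and Crip1 (3.94). It was below 0 for Spp1 (-3.86), Il34 (-3.37), Tbx3os1 (-2.82), Abcc9 (-2.81), Cp (-2.65), Rapgef5 (-2.59), Slc6a20a (-2.45), Ebf1 (-2.39), Cacna1c (-2.25), Grm7 (-2.24), Colec12 (-2.23), Adap2 (-2.10) and Atp13a5 (-1.73). Of the 4 genes above 0, Ttr and Enpp2 rest on the 2 barcodes described above, and without these barcodes the astrocyte-side differences of Crip1 and Pcp4l1 were 0.040 and -0.34, neither called, and the number of genes fell to 1 without library 2. Without matching on depth, 11 of the 17 had the opposite sign.

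Among the 4 FC mice, FC 3 stood apart on the pericyte side at 2.53% (2 of 79 singlets), with 0 high-mitochondrial singlets in each of the other 3. With 3 shares at 0, any share above 0 passes Dixon's 95% limit, so its rate of about 1 in 20 groups of normally spread values does not hold here, and the value rests on 2 barcodes.

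Of 816 high-mitochondrial barcodes called hashtag singlets, 306 carried a hashtag that the labels tie to no mouse, beside 1670 of 4395 singlets under 6%. They entered no comparison between groups.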

How the results depend on the processing

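The main limits are 3 libraries, the shallow partners of library 3 and the few pericyte-side members. The 199 astrocyte-side calls numbered 42 with DESeq2, 349 with a threshold of 5%, 448 with 10% for the high arm, 3420 without matching, 3440 without matching in clear-class barcodes, 859 with mice as replicates and no matching, 0 with mice as replicates and matching (293 genes tested, chosen minimum of 5 barcodes per arm), and 25 to 371 without 1 library (25 without library 2, 32 without library 3, 371 without library 1). DESeq2 shared 40 of its calls with the 199, and leaving out library 2 and library 3 shared 20 and 30. The 6 pericyte-side calls numbered 35 with DESeq2, 600 without matching, 3 when matched on all gene UMIs, 22 in clear-class barcodes, 349 in those without matching, 28 with at least 500 genes, 1 without called doublets, 46 with at least 1000 non-mt UMIs and 0 to 35 without 1 library (0 without library 2, 1 without library 1, 35 without library 3); mice could not be fitted. The 17 genes of the interaction numbered 7 with no filter on low counts, 3 with 10%, 467 without matching, 6 when matched on all gene UMIs, 8 in clear-class barcodes, 351 in those without matching, 30 with at least 1000 non-mt UMIs and 1 to 20 without 1 library. Without matching, 4 of the 17 were called in the same direction and 11 had the opposite sign (1 called), and in clear-class barcodes without matching these numbers were 2 and 13 (7 called). Without the replicate block that pairs both arms of a library, the 3 counts were 189, 0 and 2. The causes were not tested. The other alternatives, among them size factors of DESeq2's kind (213, 6 and 16), kept each count within 1.5 times. The share of high-mitochondrial barcodes on the astrocyte side was 20.6% with a threshold of 5%, 15.0% with 10% and 10.0% with at least 500 genes, and on the pericyte side 1.48% with 10%, 1.75% with at least 500 genes and 1.96% in clear-class barcodes. The 12 comparisons between behavioural groups gave 0 calls in each alternative run. With 4 mice against 4 the exact permutation test reaches 0.0286 at the lowest, before adjustment over the 12 tests. These counts of 0 were thus nearly fixed by the group size and say nothing on stability.

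Of the log2 differences of named genes, these changed sign. Without matching and, second, without matching in clear-class barcodes, the values were 1.38 and 1.86 for Tbx3os1, 0.38 and 1.89 for Abcc9, 0.91 and 2.27 for Rapgef5, 0.76 and 1.89 for Slc6a20a, 1.14 and 1.74 for Ebf1, 0.98 and 1.13 for Adap2, 1.32 and 2.10 for Il34, 0.29 and 0.50 for Colec12, 0.11 and 0.096 for Atp13a5 and 0.097 and 1.63 for Ndufa4l2. In the second of these alone they were 1.13 for Cp, 0.40 for Spp1, 1.57 for Kcnj8 and -0.12 for Igf2. Igf2 was at -4.68 with 10%, -2.36 in clear-class barcodes, -2.86 without called doublets and -3.24 without the barcodes with 50 or more Ttr UMIs, where Ttr was at -0.94 and Pcp4l1 at -0.34. Pcp4l1 was at -1.60 in clear-class barcodes. With at least 1000 non-mt UMIs Kcnj8 was at 1.29 and Spp1 at 0.075, and without 1 library Spp1 ranged from -5.27 to 0.057 (without library 3). Malat1 was at 0.076 with 10% and ranged from -0.38 to 0.016 (without library 1). With mice as replicates and no matching Igfbp2 was at -0.52 and Atp13a5 at 0.23. On the pericyte side Crip1 was at 0.49 without called doublets. The alternatives on Ttr, clear class without matching, mice without matching and 1000 UMIs were chosen after seeing the data. On the pericyte side the matched arms held 16, 10 and 17 barcodes, and called genes had as few as 4 UMIs in an arm.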

Other observations

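Hashtag calls differed in the same barcodes. On the astrocyte side 37.1% of the high-mitochondrial barcodes were singlets, 30.3% doublets and 32.7% negative, against 35.6, 21.4 and 43.0% under 6%, and the 90th percentile of the top hashtag's UMIs was 23.3 against 8. By library, doublets were more common and negatives less common in 3 of 3, whereas singlets were at 302 of 957 against 1186 of 3390 in library 1, 230 of 523 against 727 of 2397 in library 2 and 246 of 618 against 1294 of 3210 in library 3, so higher in library 2 alone. On the pericyte side the shares were 50.7, 38.7 and 10.7% against 50.3, 45.7 and 3.98%, with more negatives in 3 of 3 libraries and more singlets in library 1 alone (51.7 against 41.7%).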
